A study of Mus musculus with 28 samples.

Results

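Colony-stimulating factors and chemokines are secreted signals through which epithelial and tumour cells act on white blood cells. The 10 genes described here are Csf1, Csf2, Csf3, Cxcl1, Cxcl2, Cxcl5, Cxcl16, Ccl2, Ccl5 and Ccl20, chosen by name and matched by symbol, 1 identifier each, among the 56748 gene identifiers counted. Their RNA was measured by sequencing of total RNA, after removal of ribosomal RNA, in 28 libraries of a pair of mouse mammary epithelial lines. The groups were HC11 cells treated with DOX and DIP (HC11 DOX + DIP, n = 10), 4T1 cells treated with DOX (4T1 DOX, n = 8) and HC11 cells treated with DOX (HC11 DOX, n = 10). DOX was thus common to all libraries, and no library without it was analysed here. HC11 is labelled untransformed and is an immortal line used to study lactogenic differentiation, while 4T1 is labelled cancer and is a mammary tumour line that spreads in mice. The labels do not spell out DOX or DIP, give no dose or time, and name no construct, clone or culture. With 1 line of each kind, cancer cannot be told apart from any other difference between 4T1 and HC11, and since nothing says that libraries came from separate cultures, p-values measure the spread between libraries only.

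Colony-stimulating factors act on the growth and survival of myeloid cells. Csf1 encodes M-CSF, which acts on macrophages through the receptor encoded by Csf1r, Csf2 encodes GM-CSF, and Csf3 encodes G-CSF, which drives the making and release of neutrophils. Chemokines steer cells along a gradient through G protein-coupled receptors: the products of Cxcl1, Cxcl2 and Cxcl5 attract neutrophils through CXCR2, that of Cxcl16 is made as a membrane protein and binds CXCR6, and those of Ccl2, Ccl5 and Ccl20 attract monocytes, T cells and CCR6-bearing cells. Many of these genes are switched on by inflammatory signals through NF-kappaB, and their messenger RNAs are often short-lived. The 4T1 tumour is known for the large rise of neutrophils it causes in the blood of mice.

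Libraries held between 134117581 and 222065843 counts. Libraries 8 and 10 of HC11 DOX + DIP stood apart from the rest of their group, as did libraries 7 and 9 of HC11 DOX for some of the genes below, and values without them are given where they matter. Epithelial markers summed to 998 to 2500 CPM, the counts of a gene per 1e+06 counts of its library after TMM scaling, in HC11 DOX + DIP, 2349 to 3431 in 4T1 DOX and 3751 to 8279 in HC11 DOX libraries, with 0 of 10 markers without counts in any group. These sums hide markers that went opposite ways. Cldn7 held at most 0.407 CPM in HC11 DOX and at least 63.5 CPM in 4T1 DOX. Krt5 held at least 1586 CPM in HC11 DOX and at most 95.5 CPM in 4T1 DOX. The 15 leukocyte markers summed to 9.57 to 19.5 CPM in HC11 DOX + DIP, 12.2 to 20.001 in 4T1 DOX and 3.71 to 8.45 in HC11 DOX. Ptprc, Cd3e, Adgre1 and Tyrobp stayed under 0.1 CPM in every library of every group, and Tyrobp had 0 counts in both HC11 groups. Cd68 and Cd14, the most abundant of the list, were higher in HC11 DOX + DIP than in HC11 DOX (log2 fold change 1.39, adjusted p = 0.000154, and 1.30, adjusted p = 0.00924, by edgeR) and in 4T1 DOX (1.18, adjusted p = 9.72e-06, and 1.83, adjusted p = 1.44e-05). S100a8 was higher with DIP as well (3.21, adjusted p = 2.17e-05), at a median of 0.142 CPM against at most 0.0435 CPM in HC11 DOX. It passed the filter on low counts only through HC11 DOX + DIP and had to differ, so its call adds nothing. Of the list, 6 markers were tested with DIP, with 3 higher, S100a8 among them, and 0 lower at an adjusted p under 0.05. In 4T1 DOX 5 were tested, with 3 higher and 2 lower. Over all genes tested, 45.5% differed with DIP and 69.9% in 4T1 DOX. Lyz2 held at most 0.0121 CPM in 4T1 DOX against 0.0504 to 0.310 CPM in HC11 DOX, and Laptm5 0 to 0.117 against 0.0554 to 0.512 CPM. Lyz2 and Laptm5 passed the filter in that comparison only through their HC11 DOX counts. Fibroblast and endothelial markers summed to 21.5 to 269 CPM in HC11 DOX + DIP, 9.70 to 15.97 in 4T1 DOX and 41.4 to 102.5 in HC11 DOX. The part of other cell types in the levels below was not tested. In bulk RNA, fewer cells that express a gene and less RNA per cell cannot be told apart.

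Of the 10 genes, 9 had their highest median level in 4T1 DOX, the exception being Ccl20, which was highest in HC11 DOX. Per kilobase of exon, the median levels in 4T1 DOX were led by Csf1 at 39.4 CPM per kb, Cxcl16 at 35.1 and Csf3 at 20.8. They ended with Ccl20 at 0.281 and Csf2 at 0.178 CPM per kb. In HC11 DOX + DIP, Cxcl16 led at a median of 21.1 CPM per kb, before Csf1 at 15.2 and Cxcl1 at 4.12, and in HC11 DOX the order of these 3 was the same at 9.50, 4.74 and 2.25 CPM per kb. Csf3, at 20.8 CPM per kb in 4T1 DOX, was therefore among the low genes of both HC11 groups, and Cxcl16 and Csf1 were the pair with the most RNA per length in each group.

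**Figure D1:**
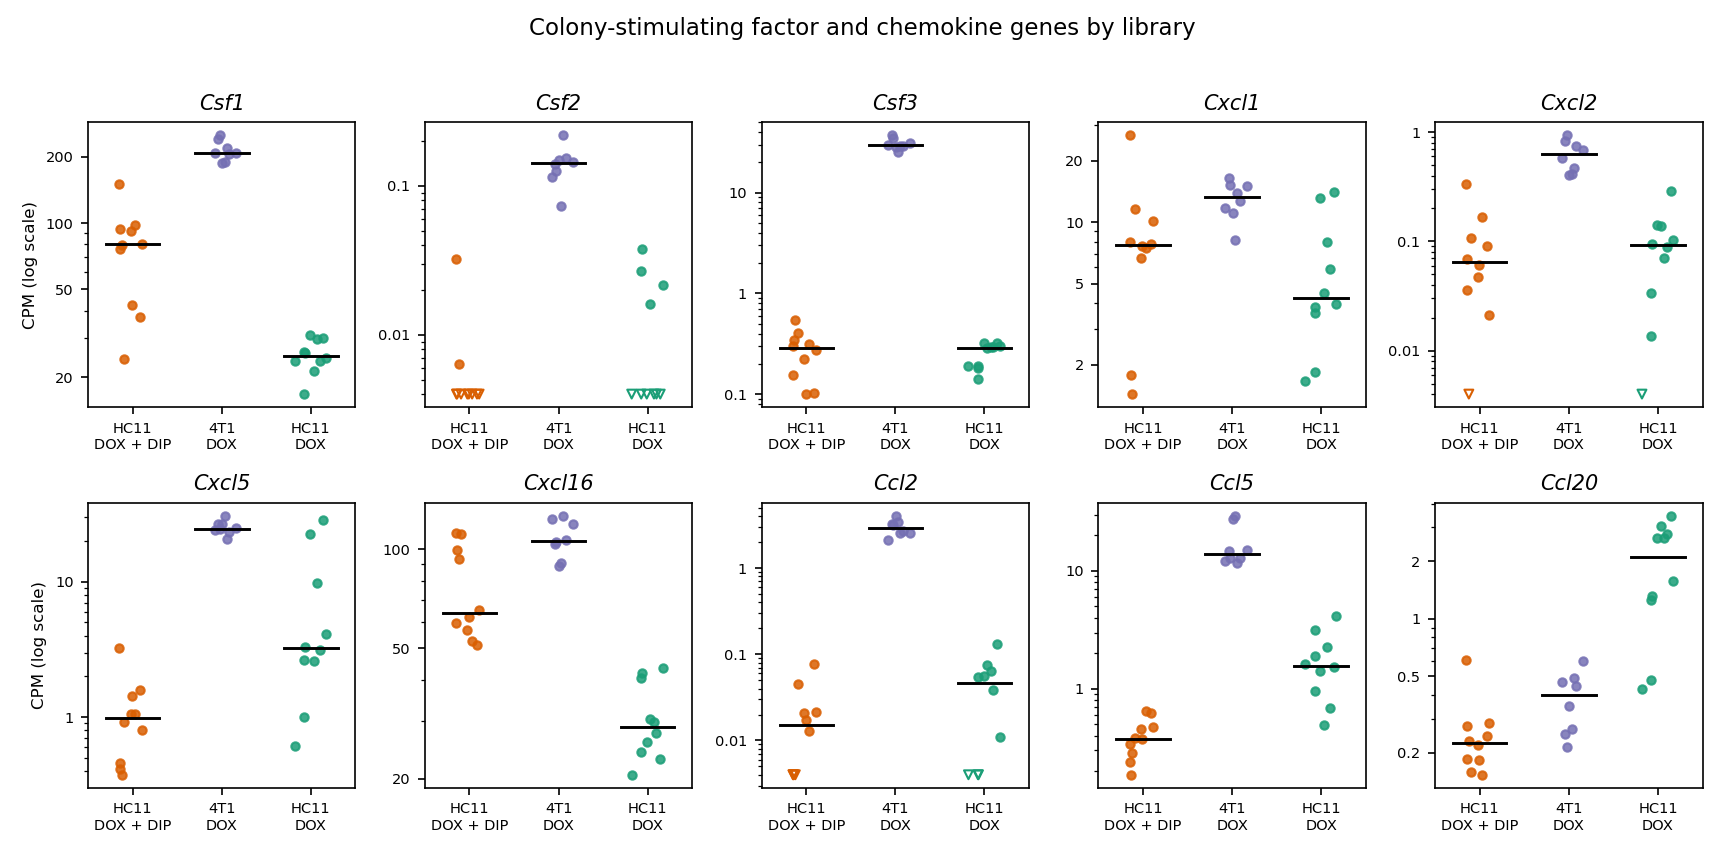
Level of each of the 10 genes in every library, in CPM on a log scale, for HC11 DOX + DIP, 4T1 DOX and HC11 DOX. Points are libraries, black lines are medians and open triangles at the foot mark libraries with 0 counts. All 4T1 DOX points lie above all HC11 points for Csf1, Csf2, Csf3, Cxcl2, Ccl2 and Ccl5, while for Ccl20 most HC11 DOX points lie highest, up to 3.45 CPM.

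In HC11 cells, DOX + DIP went with more Csf1 and Cxcl16 and less Cxcl5, Ccl5 and Ccl20 RNA than DOX alone. Tests were edgeR quasi-likelihood fits over all genes with Benjamini-Hochberg adjustment, and a gene was called at an adjusted p under 0.05. Of the 8 genes that passed the filter on low counts, 2 were called higher and 3 lower, and Csf3, Cxcl1 and Cxcl2 were not called. Over all 23829 genes tested, 45.5% were called, 24.5% higher and 21.0% lower, so calls were common in this comparison. The libraries of both groups did not overlap for 1 of the 8, Cxcl16, against 11.4% of all genes tested (4.76% higher and 6.66% lower in HC11 DOX + DIP). The median log2 fold change was 0.052 over the 8 genes and 0.055 over all genes tested. Csf2 and Ccl2 had too few counts in both HC11 groups to be tested.

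In 4T1 DOX, all 10 genes passed the filter, and 9 were called higher than in HC11 DOX and 1, Ccl20, lower. Csf2 and Ccl2 passed only through their 4T1 DOX counts and had to differ, and among the 8 genes that also passed within HC11 cells 7 were higher and 1 lower. Over all 23875 genes tested, 69.9% were called, 34.3% higher and 35.6% lower. The groups did not overlap for 5 of these 8, all of them higher in 4T1 DOX, nor for Csf2 and Ccl2, while they did not overlap for 37.0% of all genes tested (19.5% higher and 17.5% lower in 4T1 DOX). The median log2 fold change was 2.23 over the 8 genes, 2.87 over the 10 and -0.0095 over all genes tested, which is a description only. The comparisons share the HC11 DOX libraries, so a high or low HC11 DOX library moves both fold changes of a gene.

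**Figure D2:**
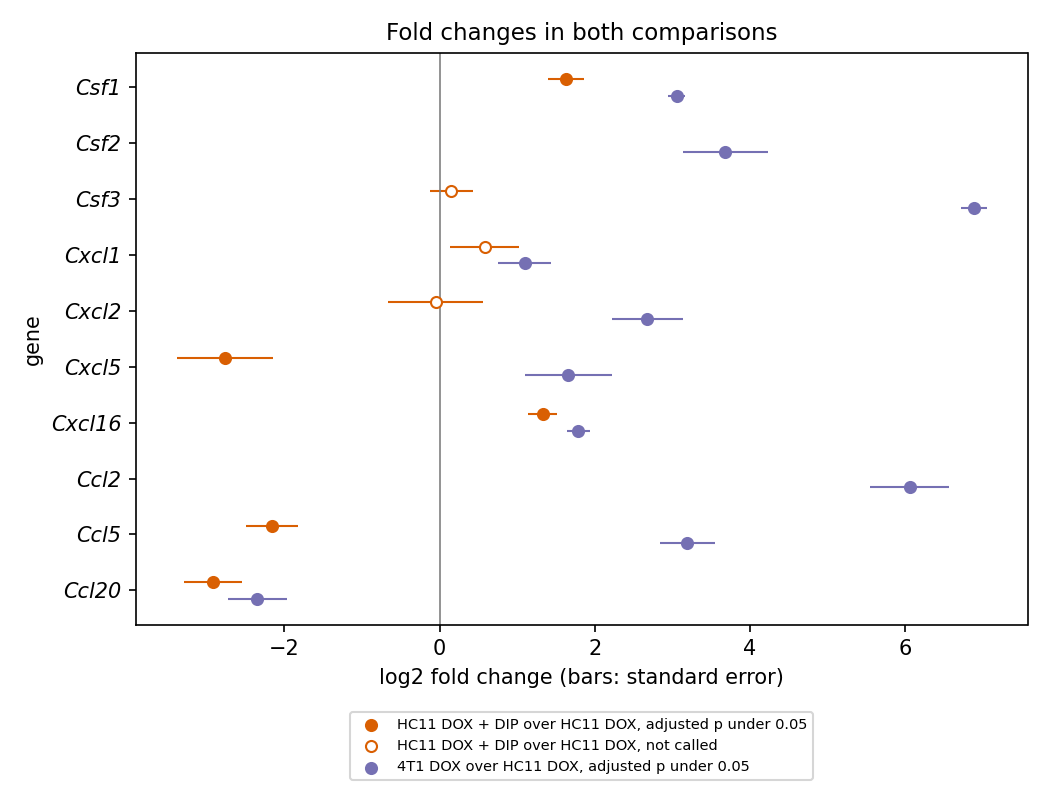
Log2 fold change of each gene in HC11 DOX + DIP over HC11 DOX and in 4T1 DOX over HC11 DOX, with bars of 1 standard error. Filled points have an adjusted p under 0.05 and open points do not, and Csf2 and Ccl2 have no point for HC11 DOX + DIP, where they were not tested. Ccl20 is the gene with both points left of 0, at -2.92 and -2.35, whereas Cxcl5 and Ccl5 lie left of 0 with DIP and right of 0 in 4T1.

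Among the colony-stimulating factors, Csf1 (ENSMUSG00000014599, chromosome 3) was the most abundant in every group. Its lowest, median and highest levels were 24.1, 80.2 and 149.7 CPM in HC11 DOX + DIP, against 16.8, 25.1 and 31.0 CPM in HC11 DOX. The groups overlapped through 1 library, HC11 DOX + DIP library 2, at 24.1 CPM, and library 1 was the highest. Csf1 was 3.09-fold higher with DIP (log2 fold change 1.63 ± 0.24, SE, adjusted p = 7.92e-06), and 1.58 on the log2 scale without libraries 8 and 10 (adjusted p = 2.92e-05), which themselves held 79.7 and 93.8 CPM. The spread also differed: the coefficient of variation was 46.8% in HC11 DOX + DIP, 10.5% in 4T1 DOX and 17.3% in HC11 DOX.

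Levels of Csf1 in 4T1 DOX ran from 187 through a median of 208 to 251 CPM, above every HC11 library of either treatment. Against HC11 DOX this was an 8.34-fold difference (log2 fold change 3.06 ± 0.11, adjusted p = 6.34e-15). The order of the medians was thus 4T1 DOX, HC11 DOX + DIP, HC11 DOX, with a clear gap below 4T1 DOX and an overlap of 1 library between the HC11 groups.

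Csf3 (ENSMUSG00000038067, chromosome 11) showed the largest fold of the 10 genes between the lines. Its lowest, median and highest levels were 25.4, 29.4 and 37.2 CPM in 4T1 DOX, against 0.142, 0.291 and 0.325 CPM in HC11 DOX, a 119-fold difference (log2 fold change 6.89 ± 0.17, adjusted p = 2.82e-17). HC11 DOX + DIP libraries held 0.1005, 0.287 and 0.541 CPM, and so enclosed the HC11 DOX range. No difference was called within HC11 (log2 fold change 0.15 ± 0.28, adjusted p = 0.693), and its sign turned to -0.10 (adjusted p = 0.775) without libraries 8 and 10, at 0.541 and 0.348 CPM. RNA of the G-CSF gene was therefore plentiful in 4T1 DOX and scarce in HC11 cells under either treatment.

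Csf2 (ENSMUSG00000018916, chromosome 11) was scarce in all groups. It had 185 counts over all 8 libraries of 4T1 DOX, at 0.0728, 0.143 and 0.219 CPM (lowest, median and highest). In HC11 DOX + DIP there were 7 counts in 2 of 10 libraries, 6 of them in library 1, and in HC11 DOX 17 counts in 4 of 10 libraries, none above 0.0377 CPM. A library with 0 counts allowed up to 0.0135 to 0.0224 CPM, at 3 counts of its total, for counting error only and if each count is a separate event. Many low counts were even numbers, as were all those of Ccl2 in HC11 libraries, so counts may not be separate events. The limit may then be higher. Csf2 was higher in 4T1 DOX than in HC11 DOX (log2 fold change 3.68 ± 0.55, adjusted p = 5.86e-06). However, Csf2 passed the filter only through its 4T1 DOX counts and had to differ. It shares 96 of its 800 exon bases (12.0%) with Gm12223 on the opposite strand, and without a stated strand setting their reads cannot be told apart. The 3 colony-stimulating factors thus covered a wide range, from a median of 208 CPM for Csf1 to 0.143 CPM for Csf2 within the same 4T1 libraries.

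The ligands of CXCR2 come next, with promoter sequence shown because Cxcl1 and Cxcl2 hold a pair of NF-kappaB-like matches each close to the start site, and Csf1 and Ccl20, which moved in opposite directions with DIP, hold 1 each. Windows of 300 bases, from 250 before to 50 after the start, were found in the RefSeq table (GRCm38.p6) for 5 of the 10 genes (Csf1, Csf2, Cxcl1, Cxcl2 and Ccl20). The motif GGG, any 2 bases, TTTCC, read on either strand, was in 4 of these 5 and in 535 of all 32851 promoter windows (1.63%). The first match lies 154 bases before the start in Csf1, 89 in Cxcl1, 97 in Cxcl2 and 80 in Ccl20, and the second lies 71 bases before the start in Cxcl1 and 78 in Cxcl2. Cxcl1 and Cxcl2 share the letters GGGAATTTCC. No match overlapped another of the motifs searched. The C/EBP-like motif TTGCNNAA was in 1 of the 5 windows, Csf2 (10.8% of all windows). The AP-1-like TGANTCA (7.81%), the STAT-like TTCNNNGAA (8.30%) and the glucocorticoid response element-like motif GNACA, any 3 bases, TGTNC (0.475%) were in 0 of the 5, which says only that these letters are not in these windows. A match is a description and no measure of binding. The 200 bases before each start are given with the NF-kappaB-like matches in capitals, read 5′ to 3′ on the strand of the gene: Csf1 at chr3:107760470-107760669 on the minus strand, and on the plus strand Cxcl1 at chr5:90891045-90891244, Cxcl2 at chr5:90903699-90903898 and Ccl20 at chr1:83116566-83116765.
Cxcl1: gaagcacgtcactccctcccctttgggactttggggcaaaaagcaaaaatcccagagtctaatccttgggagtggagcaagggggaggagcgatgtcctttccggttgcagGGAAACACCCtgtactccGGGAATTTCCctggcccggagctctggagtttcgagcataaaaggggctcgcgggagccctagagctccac
Cxcl2: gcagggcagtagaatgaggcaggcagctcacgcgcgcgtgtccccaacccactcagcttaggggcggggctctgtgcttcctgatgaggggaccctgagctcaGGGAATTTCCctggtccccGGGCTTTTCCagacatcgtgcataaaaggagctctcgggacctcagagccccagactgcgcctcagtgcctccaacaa
Csf1: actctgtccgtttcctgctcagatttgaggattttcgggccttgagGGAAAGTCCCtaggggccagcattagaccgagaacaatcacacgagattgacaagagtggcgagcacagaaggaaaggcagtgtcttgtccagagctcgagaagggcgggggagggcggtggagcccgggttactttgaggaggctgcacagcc
Ccl20: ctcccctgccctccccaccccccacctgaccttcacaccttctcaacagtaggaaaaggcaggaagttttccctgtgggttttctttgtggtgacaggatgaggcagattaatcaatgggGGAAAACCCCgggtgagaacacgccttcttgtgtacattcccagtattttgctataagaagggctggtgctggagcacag

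Cxcl1 (ENSMUSG00000029380, chromosome 5) encodes KC, the ligand of CXCR2 with the highest median per length among the 3 in both HC11 groups, although in HC11 DOX the mean of Cxcl5 was higher (7.86 CPM, against 6.04 CPM for Cxcl1, in genes of nearly equal exon length). It held 1.44, 7.72 and 26.6 CPM in HC11 DOX + DIP, against 1.66, 4.23 and 14.1 CPM in HC11 DOX (lowest, median and highest). The groups overlapped over most of their range, and the difference was not called (log2 fold change 0.58 ± 0.45, adjusted p = 0.310). Libraries 8 and 10 of HC11 DOX + DIP were the lowest, at 1.44 and 1.78 CPM, and without them the value was 0.84 (adjusted p = 0.0786). Without HC11 DOX libraries 7 and 9, its highest pair at 14.1 and 13.1 CPM, it was 1.10 (adjusted p = 0.0542). In 4T1 DOX, Cxcl1 lay at 8.13, 13.3 and 16.4 CPM and was higher than in HC11 DOX (log2 fold change 1.10 ± 0.34, adjusted p = 0.00787), although HC11 DOX libraries 7 and 9 fell within the 4T1 range.

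Cxcl2 (ENSMUSG00000058427, chromosome 5), which encodes MIP-2, was far lower. It held 0, 0.0651 and 0.334 CPM in HC11 DOX + DIP (166 counts in 9 of 10 libraries), against 0, 0.0918 and 0.288 CPM in HC11 DOX (170 counts in 9 of 10). No difference was called (log2 fold change -0.048 ± 0.61, adjusted p = 0.958), and the sign turned to 0.20 without HC11 DOX + DIP libraries 8 and 10 and to 0.44 without HC11 DOX libraries 7 and 9. In 4T1 DOX it held 0.401, 0.632 and 0.938 CPM, above every HC11 library, and was higher than in HC11 DOX (log2 fold change 2.68 ± 0.46, adjusted p = 2.88e-05).

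Cxcl5 (ENSMUSG00000029371, chromosome 5), which encodes LIX, was uneven within HC11 DOX. At its lowest, median and highest it held 0.376, 0.990 and 3.24 CPM in HC11 DOX + DIP, against 0.611, 3.23 and 28.7 CPM in HC11 DOX, whose highest library was 47.0 times its lowest. HC11 DOX libraries 7, 9 and 1 held 28.7, 22.7 and 9.82 CPM, and the other 7 held 4.11 CPM or less. Cxcl5 was 6.80-fold lower with DIP (log2 fold change -2.77 ± 0.62, adjusted p = 0.00103). Without HC11 DOX libraries 7 and 9 the log2 fold change was -1.59 (adjusted p = 0.0112), a choice made after the data were seen, and without HC11 DOX + DIP libraries 8 and 10 it was -2.56 (adjusted p = 0.00321).

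In 4T1 DOX, Cxcl5 was high and even, at 20.7, 24.6 and 30.7 CPM. Every 4T1 DOX library was above every HC11 DOX + DIP library, and HC11 DOX libraries 7 and 9 lay within the 4T1 range. The difference from HC11 DOX was called (log2 fold change 1.66 ± 0.56, adjusted p = 0.0127), at 2.74 without HC11 DOX libraries 7 and 9 (adjusted p = 8.29e-06) and at 2.597 with limma voom (adjusted p = 7.92e-05). The 3 ligands of CXCR2 were thus all higher in 4T1 DOX than in HC11 DOX, while with DIP 1 of the 3 was called, Cxcl5, and it was lower.

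**Figure D3:**
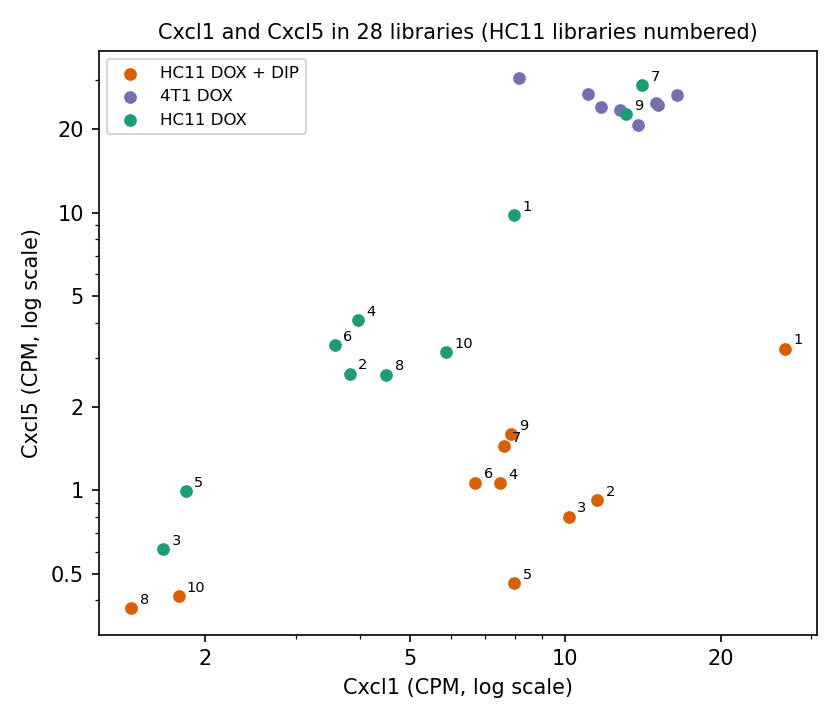
Cxcl1 on the x axis and Cxcl5 on the y axis, both in CPM on log scales, in the 28 libraries, with HC11 libraries numbered as names only. Within HC11 DOX both genes climb together from libraries 3 and 5 to libraries 9 and 7, which reach 28.7 CPM of Cxcl5. HC11 DOX + DIP libraries with like Cxcl1 levels have less Cxcl5, at most 3.24 CPM.

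Cxcl1 and Cxcl5 followed each other within the HC11 groups and not within 4T1 DOX. Pearson's r of their log2 CPM was 0.804 over the 10 HC11 DOX + DIP libraries (0.618 without libraries 8 and 10), -0.572 over the 8 4T1 DOX libraries and 0.972 over the 10 HC11 DOX libraries (0.934 without libraries 7 and 9). The 4T1 DOX library with the least Cxcl1, at 8.13 CPM, had the most Cxcl5, at 30.7 CPM, and r without that library was not computed. Both genes also varied little in 4T1 DOX, with a ratio of highest to lowest library of 2.02 for Cxcl1 and 1.48 for Cxcl5. For all genes, likeness was measured as Pearson's r of log2 CPM less the group mean, over the 26 libraries without HC11 DOX + DIP 8 and 10, among 10420 genes whose log2 CPM averaged 2 or more. The points share depth and any culture and pool the groups, so r is a description. Over these 26 libraries the gene most like Cxcl1 was Cxcl5 (r = 0.864, and 0.821 over all 28), followed by Plscr1 (r = 0.852). Over all 28 libraries Plscr1 had the higher r with Cxcl1, at 0.916. Those most like Cxcl5 over the 26 libraries were Cxcl1 and Efemp2 (r = 0.829, and 0.749 over all 28). Among the other genes described here, Ccl20 had r = 0.795 with Cxcl1 and 0.715 with Cxcl5 over the 26 libraries, and Cxcl2 had 0.731 and 0.706. For Ccl20 and Cxcl1 r was 0.567 over all 28 libraries. Csf1 had r = 0.318 with Cxcl1 over the 26 libraries. The genes most like Csf1 were Lhfpl2 (r = 0.934, and 0.840 over all 28) and Farsb (r = 0.932, and 0.732 over all 28).

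Cxcl16 (ENSMUSG00000018920, chromosome 11), the chemokine that is shed from the cell membrane, was the one of the 10 genes whose HC11 groups did not overlap. Its lowest, median and highest levels were 51.1, 63.8 and 112 CPM in HC11 DOX + DIP, against 20.6, 28.7 and 43.6 CPM in HC11 DOX, and it was 2.51-fold higher with DIP (log2 fold change 1.33 ± 0.19, adjusted p = 6.17e-06). Libraries 8 and 10, at 93.2 and 99.5 CPM, were in the upper part of the HC11 DOX + DIP range, and the log2 fold change without them was 1.22. 4T1 DOX libraries held 88.8, 106 and 126 CPM and overlapped with the upper HC11 DOX + DIP libraries, but not with HC11 DOX (log2 fold change 1.79 ± 0.15, adjusted p = 1.19e-09). Cxcl16 shares 552 of its 3021 exon bases (18.3%) with Zmynd15 on the opposite strand. Zmynd15 rose in both comparisons as well, with log2 fold changes of 1.20 ± 0.17 with DIP (adjusted p = 6.62e-06) and 1.75 ± 0.16 in 4T1 DOX (adjusted p = 6.15e-09). It was also the gene most like Cxcl16 (r = 0.935), before Tuft1 (r = 0.769, and 0.499 over all 28 libraries). How many reads belong to each of the overlapping pair is uncertain, because the strand setting is not given in the sources used here.

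Ccl2 (ENSMUSG00000035385, chromosome 11), which encodes the monocyte attractant MCP-1, was nearly silent in HC11 cells. The 8 libraries of 4T1 DOX together had 3905 counts, at 2.14, 2.90 and 4.05 CPM (lowest, median and highest). It had 34 counts in 6 of 10 HC11 DOX + DIP libraries, none above 0.0771 CPM, and 74 counts in 7 of 10 HC11 DOX libraries, none above 0.133 CPM. All 4T1 DOX libraries were above all HC11 libraries, and Ccl2 was 66.8-fold higher than in HC11 DOX (log2 fold change 6.06 ± 0.51, adjusted p = 1.76e-09), or 6.98 on the log2 scale with limma voom. Ccl2 passed the filter only through its 4T1 DOX counts and had to differ, so its p-value adds nothing to these levels.

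Ccl5 (ENSMUSG00000035042, chromosome 11), which encodes RANTES, moved in opposite directions in the comparisons. Its lowest, median and highest levels were 0.186, 0.375 and 0.651 CPM in HC11 DOX + DIP, against 0.493, 1.57 and 4.11 CPM in HC11 DOX, so that the groups overlapped at their edges. It was 4.47-fold lower with DIP (log2 fold change -2.16 ± 0.34, adjusted p = 2.11e-05). 4T1 DOX libraries held 11.7, 13.8 and 29.4 CPM, all above the HC11 libraries, and Ccl5 was 9.16-fold higher than in HC11 DOX (log2 fold change 3.20 ± 0.35, adjusted p = 1.00e-07). Within 4T1 DOX, libraries 2 and 4 stood at 27.6 and 29.4 CPM, and the other 6 lay between 11.7 and 15.2 CPM.

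Ccl20 (ENSMUSG00000026166, chromosome 1), the ligand of CCR6, was the gene of the 10 that was lower in both comparisons. Its lowest, median and highest levels were 0.153, 0.224 and 0.610 CPM in HC11 DOX + DIP, against 0.427, 2.11 and 3.45 CPM in HC11 DOX. The ranges met through HC11 DOX + DIP library 1, at 0.610 CPM, and HC11 DOX libraries 3 and 5, at 0.427 and 0.478 CPM. Ccl20 was 7.57-fold lower with DIP (log2 fold change -2.92 ± 0.37, adjusted p = 1.47e-06). In 4T1 DOX it held 0.213, 0.399 and 0.604 CPM and was 5.09-fold lower than in HC11 DOX (log2 fold change -2.35 ± 0.38, adjusted p = 1.51e-05), again with HC11 DOX libraries 3 and 5 within the 4T1 range. The 3 CC chemokines therefore ordered the groups differently: Ccl2 and Ccl5 were highest in 4T1 DOX, Ccl20 in HC11 DOX, and none had its highest median in HC11 DOX + DIP.

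The receptors through which these factors act were mostly too low to test in these epithelial lines. Of 28 colony-stimulating factor and chemokine receptors, 9 passed the filter in HC11 DOX + DIP against HC11 DOX, with 3 called higher and 1 lower and a median log2 fold change of 0.29. In 4T1 DOX against HC11 DOX 9 passed, with 4 higher and 2 lower and a median of 0.56. These shares of called genes lie near those over all genes tested, 45.5% with DIP and 69.9% in 4T1 DOX. The receptors Csf2ra, Csf2rb, Csf3r, Cxcr6, Ccr2 and Ccr6 did not pass in either comparison. Csf1r, the receptor of the Csf1 product, held 10.9, 11.4 and 14.4 CPM in 4T1 DOX (lowest, median and highest), against 6.62, 7.84 and 9.58 CPM in HC11 DOX, a difference of 0.56 ± 0.08 on the log2 scale (adjusted p = 6.62e-06). Csf1r shares 15.1% of its exon bases with Hmgxb3 on the opposite strand, whose own log2 fold change in 4T1 DOX was 0.20 (adjusted p = 0.0515). Ackr3, a scavenging receptor of CXCL12, fell with DIP without overlap, at 1.71, 5.10 and 6.96 CPM in HC11 DOX + DIP against 21.7, 29.2 and 54.0 CPM in HC11 DOX (log2 fold change -2.86 ± 0.26, adjusted p = 1.00e-08).

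Among 33 other colony-stimulating factors and chemokines, 10 were tested with DIP, of which 5 were higher and 1 lower (median log2 fold change 0.59). In 4T1 DOX 13 were tested, with 5 higher and 5 lower (median 0.050), beside 45.5% of all genes called with DIP and 69.9% in 4T1 DOX. Ccl9, which encodes a ligand of CCR1 in the mouse, had 0.204, 54.8 and 102 CPM in HC11 DOX + DIP (lowest, median and highest) against 1.23, 1.76 and 3.21 CPM in HC11 DOX (log2 fold change 4.86 ± 0.70, adjusted p = 7.91e-06). Libraries 8 and 10 of HC11 DOX + DIP, at 0.204 and 0.775 CPM, were below every HC11 DOX library, while the other 8 held at least 41.2 CPM. Cxcl12, which encodes the ligand of CXCR4, fell in both comparisons. Its log2 fold change with DIP was -1.18 ± 0.40 (adjusted p = 0.0200, and 0.0516 without HC11 DOX libraries 7 and 9). Libraries 8 and 10 of HC11 DOX + DIP held 2.74 and 3.48 CPM of Cxcl12, the other 8 held 29.3 to 57.5 CPM and overlapped with HC11 DOX, at 37.6 to 119 CPM, and without libraries 8 and 10 the log2 fold change was -0.89 (adjusted p = 0.00185). In 4T1 DOX it was -5.69 ± 0.53 (adjusted p = 8.94e-09), or -6.79 without 4T1 DOX libraries 1 and 2, its highest. Il34, which encodes a second ligand of the Csf1 receptor, averaged 18.03 ± 1.41 CPM in 4T1 DOX (SD, n = 8) and 5.97 ± 1.49 CPM in HC11 DOX (SD, n = 10), with a log2 fold change of 1.57 ± 0.14 by edgeR (adjusted p = 5.48e-09). Ccl25 differed less, at 0.84 with DIP (adjusted p = 2.65e-05) and -0.44 in 4T1 DOX (adjusted p = 0.00382).

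**Figure D4:**
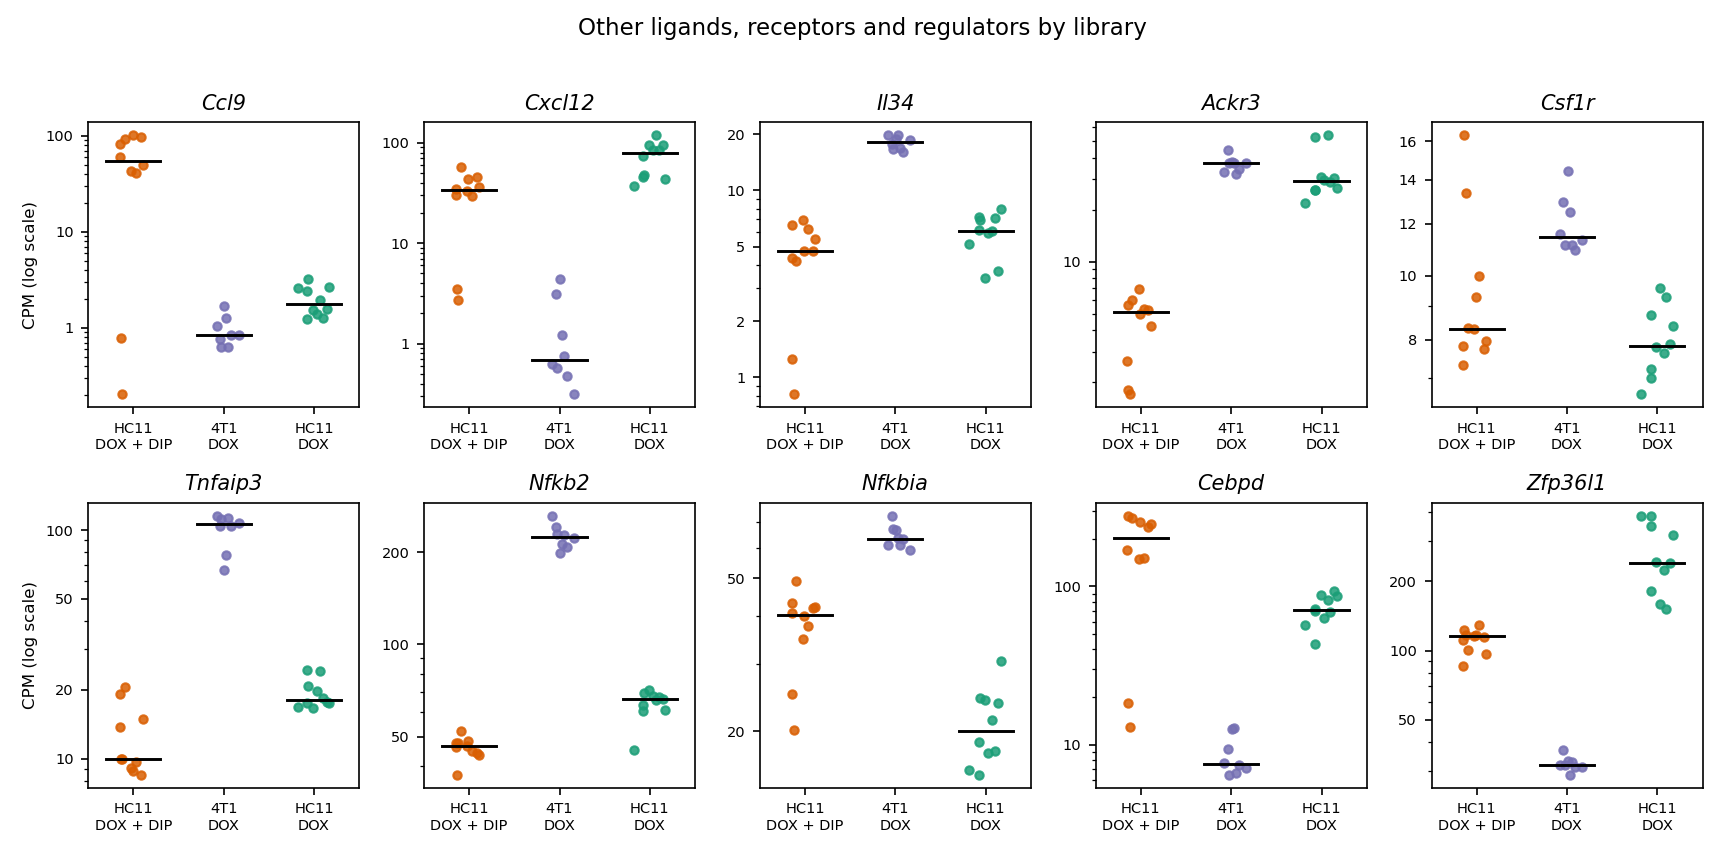
Levels of 10 genes for other ligands, receptors and regulators in every library, in CPM on a log scale, for HC11 DOX + DIP, 4T1 DOX and HC11 DOX, with black lines at the medians. Tnfaip3, Nfkb2 and Nfkbia are highest in 4T1 DOX without overlap with either HC11 group. For Ccl9 the libraries of HC11 DOX + DIP split into 8 at 41.2 CPM or more and the pair 8 and 10 below 1.

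Genes that regulate inflammatory transcription and messenger RNA decay were the last list. Of 40 genes, 38 were tested with DIP, with 13 higher and 10 lower (median log2 fold change 0.19), and 39 in 4T1 DOX, with 15 higher and 15 lower (median -0.19). Over all genes tested, 45.5% were called with DIP and 69.9% in 4T1 DOX. The named genes that rose in 4T1 DOX were Nfkb2, Tnfaip3, Nfkbie and Nfkbia. Nfkb2, which encodes a subunit of NF-kappaB, held 198 to 263 CPM in 4T1 DOX against 45.2 to 70.7 CPM in HC11 DOX (log2 fold change 1.80 ± 0.08, adjusted p = 9.93e-14). The inhibitors Tnfaip3, Nfkbie and Nfkbia rose by 2.35, 2.26 and 1.60 on the log2 scale (adjusted p = 9.25e-13, 3.90e-08 and 2.26e-10). All 4, named for the size of their folds, had no overlap between 4T1 DOX and HC11 DOX. The same held for 17 of the 39 regulators tested and for 37.0% of all genes tested. Other NF-kappaB genes of the list, named after their values were seen, went both ways. Relb held 34.6 to 43.0 CPM in 4T1 DOX against 7.80 to 16.9 CPM in HC11 DOX, and Tnip1 53.9 to 78.2 against 20.2 to 31.6 CPM. Nfkbib (26.4 to 34.2 against 9.26 to 23.3 CPM) and Rela (83.7 to 98.1 against 52.5 to 76.0 CPM) were also higher without overlap. Nfkb1 was not called (-0.19, adjusted p = 0.0938), and Nfkbiz (-0.84, adjusted p = 8.29e-08), Ikbkg (-0.44, adjusted p = 2.87e-05) and Myd88 (-0.44, adjusted p = 0.00877) fell. The named genes that fell were Cebpd, a C/EBP transcription factor (-3.07, adjusted p = 4.48e-12), the viral RNA sensor Tlr3 (-1.78, adjusted p = 1.79e-07) and the decay factors Zfp36l1 (-3.06, adjusted p = 3.00e-11) and Zfp36 (-1.17, adjusted p = 5.36e-09), whose products bind AU-rich messenger RNAs. Zfp36l1 shares 55.9% of its exon bases with Gm26669 on the opposite strand, so its count is uncertain, and smaller shares of Cebpd (15.003%, with Spidr) and Nfkb2 (11.6%, with AC114539.1) overlap in the same way.

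With DIP the named regulators that rose were Dusp1, a phosphatase that damps MAP kinase signals (log2 fold change 2.15, adjusted p = 1.07e-05), Tlr4 (1.44, adjusted p = 1.91e-05), Cebpd (1.33, adjusted p = 0.00826) and Tlr3 (1.25, adjusted p = 0.00166). In libraries 8 and 10 Cebpd held 12.9 and 18.5 CPM, below every HC11 DOX library (43.0 CPM or more), against 149 CPM or more in the other 8, and it was not called with limma voom (0.86, adjusted p = 0.165). Tlr3 held 37.0 and 36.7 CPM in libraries 8 and 10, below the HC11 DOX median of 47.0 CPM, and at least 66.3 CPM in the other 8. Dusp1 held 14.3 and 17.8 CPM in libraries 8 and 10, inside the HC11 DOX range of 7.61 to 18.5 CPM. In the other 8 it held at least 27.8 CPM. The named regulators that fell were Bcl3, an atypical member of the inhibitor family of NF-kappaB (-1.99, adjusted p = 0.000507), Zfp36l1 (-1.23, adjusted p = 3.41e-06), the RNA-binding protein gene Hnrnpd (-1.22, adjusted p = 5.26e-05) and Rel, a subunit of NF-kappaB (-0.87, adjusted p = 0.000609). Hnrnpd held 160 and 198 CPM in libraries 8 and 10, inside the HC11 DOX range of 148 to 341 CPM, and at most 106 CPM in the other 8. Further NF-kappaB genes, named after their values were seen, went both ways with DIP. Nfkbia (0.86, adjusted p = 0.000104), Relb (0.57, adjusted p = 0.00432), Myd88 (0.45, adjusted p = 0.0359), Tnip1 (0.40, adjusted p = 0.00632), Ikbkg (0.31, adjusted p = 0.0322) and Rela (0.27, adjusted p = 0.0235) were higher. Tnfaip3 (-0.62, adjusted p = 0.00444), Nfkb1 (-0.61, adjusted p = 0.000193) and Nfkb2 (-0.46, adjusted p = 0.000120) were lower. Whether any of these genes had a part in the levels of the colony-stimulating factors and chemokines was not tested.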

How the data were processed

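Gene counts came from 28 libraries of total RNA, prepared after removal of ribosomal RNA per the labels' protocols. Per the submitters' processing notes, fastp 0.23.2 and featureCounts 2.0.1 were used with GRCm39. Neither the aligner nor the strand setting was given there or in the labels. The deposited files hold raw gene counts, as whole numbers, without normalisation. Groups came from the cell line and treatment labels. Library numbers are names in the order of the series and pair nothing. Total counts per library were 134117581 to 222065843, and 0 counts allowed up to 0.0135 to 0.0224 CPM, at 3 counts per library and if each count is a separate event.

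Both comparisons were fitted with edgeR 4.0.16 (R 4.3.3) on the 2 groups compared, with filterByExpr, TMM factors, robust glmQLFit, glmQLFTest and Benjamini-Hochberg adjustment over all genes tested. Each SE was taken as the absolute log2 fold change over the root of the F statistic. The biological coefficient of variation was 0.409 in the DIP fit and 0.301 in the 4T1 fit. CPM were scaled with TMM factors of all 28 libraries together, with a prior count of 2 for log2 CPM. Alternatives were RLE factors, no filter, DESeq2 1.42.0, limma 3.58.1 voom, 3 groups in 1 fit and libraries left out. The procedure was tested on simulated data.

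Symbols, exon lengths, chromosomes and overlaps came from GENCODE vM21, which named 52073 identifiers. The 147 listed names all matched by symbol. Promoter windows came from RefSeq (GRCm38.p6), used for sequence and not for the counts. All 10 members are named. From other lists, up to 4 called genes per direction with the largest fold were named at a mean log2 CPM of at least 2, and for each such member the 2 genes most like it. The members and lists were chosen with earlier results of these data known. No 2 libraries of a group were copies: their counts differed by a chi-square of at least 16.3 per degree of freedom. Likeness was uneven, however. The value was 30.9 for HC11 DOX + DIP libraries 7 and 9, with up to 2134 in that group. It was 46.3 for HC11 DOX libraries 7 and 9 (up to 690) and 16.3 for 4T1 DOX libraries 5 and 6 (up to 352). Such pairs may not be separate units, which neither the p-values nor leaving out 1 library allow for. Whether they share a culture was not tested.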

Additional observations from a re-analysis of the deposited data

Results flagged for a closer look

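A library was singled out where its gap to the nearest of its group exceeded the 95% critical value of Dixon's test. With independent, normally spread values, chance does this in about 1 in 20 groups. CPM are skewed, and Cxcl1, Cxcl2, Cxcl5 and Ccl20 moved together, so the flags cannot be set against that rate. Of 30 groups of values (10 genes in 3 groups), 6 had such a library, and 5 of the 6 were library 1 of HC11 DOX + DIP. That library was highest for Cxcl1 at 26.6 CPM (next 11.5), for Cxcl2 at 0.334 CPM (next 0.166), for Cxcl5 at 3.24 CPM (next 1.59), for Ccl20 at 0.610 CPM (next 0.285) and for Csf2 at 0.0324 CPM (next 0.00637). The value for Csf2 rests on 6 counts. Library 1 was also the highest of its group for Csf1, at 149.7 CPM. The remaining one was HC11 DOX library 7 for Cxcl2, at 0.288 CPM (next 0.140), the library that was also highest for Cxcl1 and Cxcl5.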

How the results depend on the processing

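The counts of called members (with DIP 2 higher and 3 lower, in 4T1 DOX 9 higher and 1 lower) were the same under each alternative and each library left out. With no filter on low counts, the other ligands called in 4T1 DOX went to 16 (10 with the filter) and the receptors to 12 (6 with the filter). Leaving out 1 library at a time gave, with DIP, 6 to 7 other ligands, 3 to 4 receptors and 21 to 25 regulators called, and in 4T1 DOX 5 to 9 receptors and 29 to 34 regulators. The signs that turned belong to uncalled genes: Csf3 with DIP was -0.013 with limma voom and -0.10 without libraries 8 and 10, and ranged from -0.014 to 0.25 when 1 library was left out. Cxcl2 with DIP was 0.20 without libraries 8 and 10, 0.44 without HC11 DOX libraries 7 and 9, and -0.53 to 0.30 when 1 library was left out. Why these moved was not tested. No paired analysis was possible because the labels give no replicate or culture numbers. Depth limits Csf2, Ccl2 and Cxcl2 in HC11 cells, where many libraries held few or 0 counts.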

Other observations

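Some ligands outside the 10 genes, named here after their values were seen, showed larger contrasts. Cxcl17 held 12.5 to 34.7 CPM in 8 HC11 DOX + DIP libraries and 0.115 and 0.318 CPM in libraries 8 and 10, against at most 0.337 CPM in HC11 DOX (log2 fold change 7.30 ± 0.82 by edgeR, adjusted p = 2.42e-07). Ccl6 had the same split, with 7.36 to 18.6 CPM in 8 libraries and 0.0255 and 0.120 CPM in libraries 8 and 10, against at most 0.546 CPM in HC11 DOX (log2 fold change 4.95 ± 0.69, adjusted p = 5.56e-06). For Ccl9, Ccl6 and Cxcl17 alike, libraries 8 and 10 were thus near or below the HC11 DOX level, whereas for Csf1 and Cxcl16 they lay with the rest of HC11 DOX + DIP. Ccl28, a chemokine of mucosal epithelium, was higher with DIP (log2 fold change 3.30 ± 0.56, adjusted p = 5.11e-05), with libraries 8 and 10 at 0.471 and 0.396 CPM, inside the HC11 DOX range of 0.142 to 0.730 CPM, and the other 8 at 0.957 CPM or more. It was lower in 4T1 DOX (-4.19 ± 0.51, adjusted p = 3.53e-07), at no more than 0.0526 CPM. There it passed the filter only through its HC11 DOX counts and had to differ.

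In 4T1 DOX, Cxcl3, a further ligand of CXCR2, held 1.07 to 5.16 CPM, against at most 0.0404 CPM in HC11 DOX (log2 fold change 7.29 ± 0.62, adjusted p = 2.42e-09). Cxcl3 passed the filter only through its 4T1 DOX counts and had to differ, so its p-value adds nothing. Cxcl10, whose product binds CXCR3, was higher as well (log2 fold change 3.07 ± 0.32, adjusted p = 4.81e-08). Its highest 4T1 DOX libraries were 2 and 4, at 9.18 and 11.05 CPM, the pair that was also highest for Ccl5, while the other 6 held 4.02 to 5.24 CPM.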
